A study of Mus musculus with 36 samples.

Results

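Tet1-null embryos do not all develop alike. Of the 36 embryonic brains profiled in the series, 12 came from homozygous Tet1 knockout (KO) embryos that their labels class either as carrying a neural tube defect (NTD, 5 embryos) or as normal (norm, 7 embryos), and these 12 were compared here. Each embryo was placed by its genotype and phenotype label. All were E11.5 embryos of the 129S6.cg strain carrying the Tet1tm1Koh allele, from matings of heterozygous (HET) parents. Dams were kept on 30, 3 or 0.1 ppm folic acid with succinyl sulfathiazole, an antibiotic that limits folate made by gut bacteria, for at least 4 weeks. The 5 KO NTD embryos comprised 2 on 30 ppm, 1 on 3 ppm and 2 on 0.1 ppm. The 7 KO norm embryos comprised 2, 3 and 2, respectively. By the study's methods the defect was exencephaly, scored by eye, and the tissue was the brain from the forebrain to the caudal hindbrain, so it holds many cell types. A difference in methylation may therefore be a difference within cells or in the share of a cell type, and these cannot be told apart.

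TET1 is a dioxygenase that oxidises 5-methylcytosine and so opens a route to its removal. Exencephaly arises when the cranial neural folds do not close, a process that needs cell shape change, planar cell polarity, patterning signals and one-carbon metabolism. Oxidative bisulfite reduced representation bisulfite sequencing (oxBS-RRBS) was used, in which only 5-methylcytosine still reads as cytosine. Levels are therefore percentages of reads that still read as cytosine at CpGs near MspI and TaqI sites, taken here as 5-methylcytosine. A sequence variant at a CpG would also change its level, and variants were not analysed.

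Depth was alike in both groups. KO NTD libraries held 29.7 to 39.3 M CpG calls at a mean coverage of 13.7 to 15.8 reads, and KO norm libraries 25.7 to 47.7 M at 12.1 to 22.1 reads. At an intronic Tet1 CpG (in the tile chr10:62884001-62885000), KO NTD embryos read 69.6 to 88.9% and KO norm embryos 72.0 to 96.2%, against 0 to 7.32% in 7 of the 9 WT libraries. The other WT libraries, WT norm replicate 5 and WT inHB replicate 1, read 36.36 and 40% there and 43.08 and 40.98% at regions the authors deposited as more methylated in KO than in WT, where the 7 read 35.84 to 38.5% and HET libraries 39.4 to 42.4%. These levels go against the WT labels of both, although the study's sample list also gives both as WT. Neither is among the 12 embryos. The Tet1 CpG marks genotype loosely, since 9 HET norm libraries read 8.33 to 69.2% at it. It was picked by no stated rule from the measured CpGs of Tet1, so it is not an independent test of genotype. The titles also give litters, and no litter gave both a KO NTD and a KO norm embryo: the 5 came from 4 litters and the 7 from 6 others. Litter and phenotype thus cannot be told apart. On 0.1 ppm both NTD embryos were female littermates and both norm embryos were male, so sex is confounded there as well. By the study's sample list, some norm embryos were also scored at an earlier developmental stage, and the part of stage in any result was not tested.

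Mean methylation did not differ past the adjusted threshold. The 12 libraries shared 1106096 autosomal CpGs with 5 or more reads in each. Over these, KO NTD embryos read 37.6, 37.7, 37.9, 37.8 and 37.6% in replicate order. KO norm embryos ranged from 37.7 to 38.8% with a median of 38.1%. NTD replicates 1 and 5 lay below the lowest norm embryo and the other 3 within the norm range. The difference adjusted for diet was -0.374 points (37.7% ± 0.153, SD, n = 5, against 38.1% ± 0.347, n = 7). It had an exact permutation p of 0.0417 with labels permuted within diet, two-sided, and 0.0833 after adjustment over 6 measures of each embryo, where 0.00694 is the smallest p that the 144 labelings allow. The permutation, here and for the other measures, took littermates (NTD replicates 3 and 4, norm replicates 1 and 3) as independent. The NTD mean was the lower one on every diet, by -0.169 points on 30 ppm, -0.640 on 3 ppm, where it is 1 embryo, and -0.380 on 0.1 ppm. The unadjusted p did not stay under 0.05 with reads pooled or with each library's own CpGs, as given in the section on processing.

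The other measures are grouped by where the CpGs lie. Intergenic CpGs differed by -0.780 points (exact permutation p = 0.0208, adjusted p = 0.0833) and intronic CpGs by -0.666 points (exact permutation p = 0.0278, adjusted p = 0.0833). Promoter CpGs, which are mostly unmethylated, averaged 7.18% ± 0.0404 (SD, n = 5) in NTD and 7.31% ± 0.168 (n = 7) in norm embryos, a difference of -0.124 points (exact permutation p = 0.111, adjusted p = 0.133). Exonic CpGs differed by -0.354 points (exact permutation p = 0.0903, adjusted p = 0.133), and by -0.167 points without KO NTD replicate 5. None of these passed the adjusted threshold.

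The regions that the authors deposited as more methylated in KO than in WT embryos showed no detectable difference between the phenotypes. These regions were chosen per diet with KO embryos of every phenotype together, so the choice did not use the label compared here. Yet the embryos compared were among those used for the choice, which is therefore not independent of their levels. On 3 ppm, which gave the longest list (18109 autosomal regions), 3 of them were norm and 1 NTD, so the choice can lean towards norm embryos there. Pooled over 117863 shared CpGs inside them, KO NTD embryos read 50.8, 51.3, 52.0, 51.8 and 51.6%. KO norm embryos ranged from 50.6 to 53.999% with a median of 52.2%, which encloses every NTD value. NTD and norm embryos differed by -0.522 points (0.212 on 30 ppm, -1.48 on 3 ppm and -0.535 on 0.1 ppm), with an exact permutation p of 0.201 before and after adjustment, and by -0.164 points without KO NTD replicate 5. As a reference, 9 WT libraries had a median of 36.72% and 11 HET libraries a median of 41.39% at the same CpGs.

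**Figure D1:**
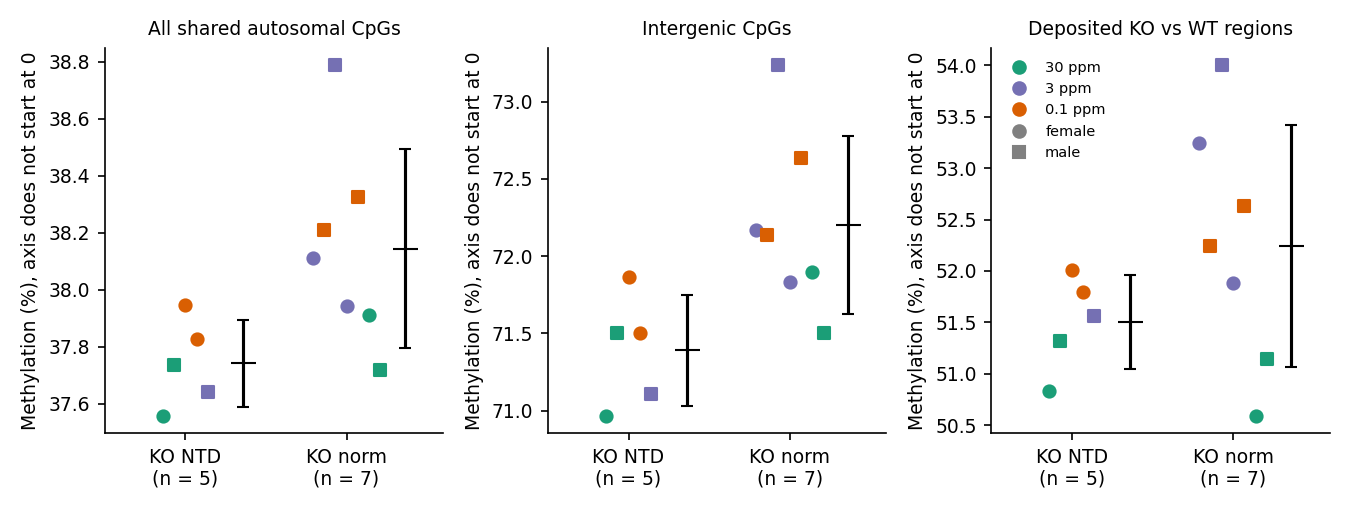
Methylation (%) of each KO embryo over all shared autosomal CpGs, intergenic CpGs and the deposited KO vs WT regions; colours give the folic acid diet, circles are females, squares are males, and the bar is the mean with 1 SD, on axes that do not start at 0. In the first panel 2 of the 5 NTD embryos sit below the lowest norm embryo (37.6 to 37.9% against 37.7 to 38.8%), and in the third all 5 sit inside the norm range.

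Embryos that are not knockouts were set beside this. WT and HET littermates of the KO embryos were compared as litters that gave a KO NTD embryo against litters that gave a KO norm embryo. Their mean methylation over 968373 shared CpGs differed by -0.413 points after adjustment for diet and genotype, with 31.9 to 32.9% in 7 embryos of NTD litters and 32.0 to 33.5% in 11 embryos of norm litters. Without the 2 libraries labelled WT whose levels go against that label (chosen after seeing the data), the difference was -0.48 points. These values are a description, with no test.

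Differences at single places were then sought in 1 kb tiles. A tile was tested when it held at least 3 shared CpGs and its level varied by an SD of at least 2 points, and a call needed 10 points or more together with an adjusted p under 0.05. Of 66110 tiles, 4 were called higher in KO NTD embryos (0.00605% of tiles) and 0 lower (0%). At an unadjusted p under 0.05 and 10 points, 98 tiles were higher (0.148%) and 297 lower (0.449%) by the quasi-binomial test, and limma on logit levels called 3 tiles higher and 0 lower. The median difference over all tiles was -0.68 points, and 39.4% of tiles had a higher level in NTD embryos. In the WT and HET littermates, 0 of 57521 tiles were called (0%), the median difference was -0.79 points, and 12 tiles were higher and 202 lower at an unadjusted p under 0.05 and 10 points. Without the same 2 libraries, 0 of 58439 tiles were called, and without the library labelled WT inHB alone, 16 of 58578 were called, all lower. These littermate fits took each embryo as independent, although the factor belongs to the litter (4 NTD and 6 norm litters). Their p-values and counts are therefore not those of a test between litters.

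**Figure D2:**
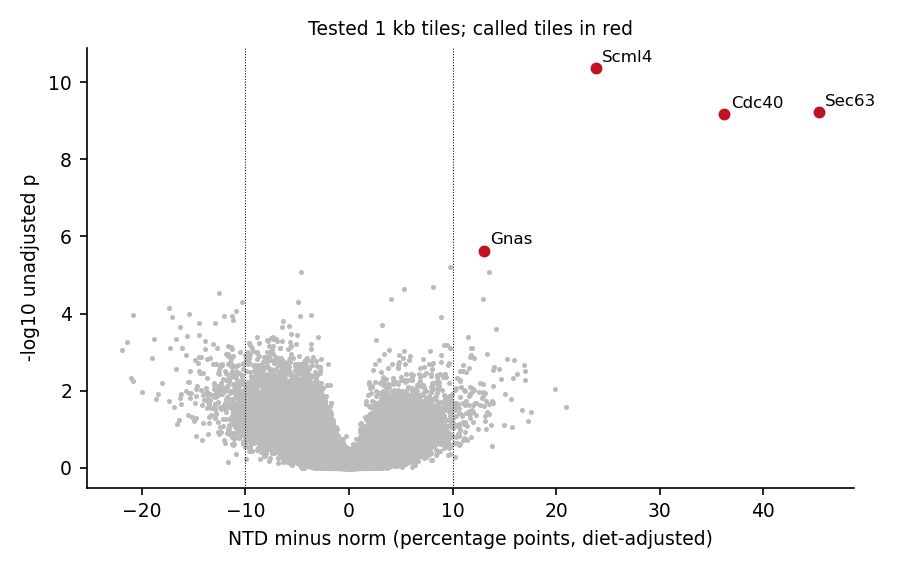
Difference between KO NTD and KO norm embryos (percentage points, adjusted for diet) against the -log10 of the unadjusted p of each tested 1 kb tile; dotted lines mark 10 points and red points are the called tiles. The 4 called tiles, at Scml4, Cdc40, Sec63 and Gnas, all lie on the side that is higher in NTD embryos.

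Of the called tiles, 3 lie on chromosome 10, and there the difference was carried by single CpGs rather than by the tile. The tile in Sec63, which encodes a component of the protein import channel of the endoplasmic reticulum, is at chr10:42779001-42780000 within an intron. The tile in Cdc40, a splicing factor gene, is at chr10:40876001-40877000 within an intron. The tile in Scml4, which encodes a Polycomb-related protein, is at chr10:42919001-42920000, also intronic. Positions are those of mm10 (GRCm38) counted from 1. The reference sequences around the CpGs that differed are shown because the neighbouring CpGs in the same stretch did not differ. The sequences are read from the plus strand of GRCm38.p6 and capitals mark the CpGs that differed.
Cdc40, chr10:40876341-40876511: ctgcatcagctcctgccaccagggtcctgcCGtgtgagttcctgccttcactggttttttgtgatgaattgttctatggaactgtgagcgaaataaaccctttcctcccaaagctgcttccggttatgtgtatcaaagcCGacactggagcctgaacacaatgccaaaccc
Sec63, chr10:42778982-42779050: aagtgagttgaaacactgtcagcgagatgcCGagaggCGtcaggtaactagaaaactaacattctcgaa
Scml4, chr10:42919923-42919984: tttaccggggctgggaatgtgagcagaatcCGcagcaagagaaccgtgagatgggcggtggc

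In the Sec63 tile, KO NTD embryos read 100, 100, 97.2, 100 and 97.6% in replicate order. KO norm embryos ranged from 30.3 to 81.5% with a median of 35.3%. The groups did not overlap, and the difference was 45.4 points (adjusted p = 1.47e-05). The tile holds 3 CpGs. The 2 in capitals differed by 67.9 and 67.3 points, and the CpG just before them read 88.2 to 100% in every one of the 12 embryos. These 2 CpGs are covered by the same number of reads in each embryo (8 to 24) and lie within a few bases, so they are not separate observations.

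In the Cdc40 tile, KO NTD embryos read 92.4, 97.5, 94.9, 96.7 and 92.7%, and KO norm embryos 41.7 to 74.1% with a median of 47.4% (difference 36.26 points, adjusted p = 1.47e-05). Of its 4 CpGs, the outer 2 differed by 56.1 and 77.3 points, and the 2 between them read 83.3 to 100% in all embryos. In the Scml4 tile, the deepest of the 3 with at least 29 reads at each CpG of every embryo, KO NTD embryos read 92.0, 89.2, 96.9, 95.2 and 94.3%, and KO norm embryos 61.1 to 79.4% with a median of 64.4% (difference 23.9 points, adjusted p = 2.78e-06). Here 1 CpG of 3 differed, by 73.2 points. It read 91.3 to 97.1% in KO NTD embryos and 0 to 47.5% in KO norm embryos, and the next CpG differed by -2.13 points.

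Averaged over such CpGs, the embryos fell into 3 steps, with more scatter at single CpGs, where the intermediate embryos read 11.1 to 75%. To ask how often this happens, all shared CpGs were searched, after the pattern had been seen, by a rule that does not use the phenotype: at least 3 of the 12 embryos at or under 15% and at least 3 at or over 75%. Of 1106096 CpGs, 11 met it. Of these, 1 lies on chromosome 3 (chr3:83437142), where both groups held high and low embryos. The other 10 all lie on chromosome 10 between chr10:40564623 and chr10:44382045, a span of 3.82 Mb that ends 18.5 Mb from the Tet1 start. Over all autosomes, 10 CpGs (0.000904%) had groups that did not overlap and a difference of at least 50 points, and these were the same 10.

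Over the 10 CpGs, the mean level was 94.0, 92.4, 95.8, 94.98 and 90.6% in KO NTD replicates 1 to 5. In the KO norm group, replicates 1, 3, 4 and 7 read 0, 0, 1.76 and 0%, and replicates 2, 5 and 6 read 45.5, 48.7 and 43.3%. Hence the NTD embryos shared a high state and no norm embryo had it. In the Sec63, Cdc40 and Scml4 tiles, norm replicates 2, 5 and 6 likewise lay above the other norm embryos, so these tiles are not separate observations. The 17 shared CpGs that lie within 100 bp of the 10 averaged 86.4 to 91.2% in NTD and 88.0 to 92.8% in norm embryos. The low and intermediate embryos were thus highly methylated at the CpGs beside the 10. Among norm embryos the 3 on 3 ppm, of which 2 are littermates, were low, the 2 on 0.1 ppm were intermediate, and those on 30 ppm were 1 of each; the link to diet was not tested.

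**Figure D3:**
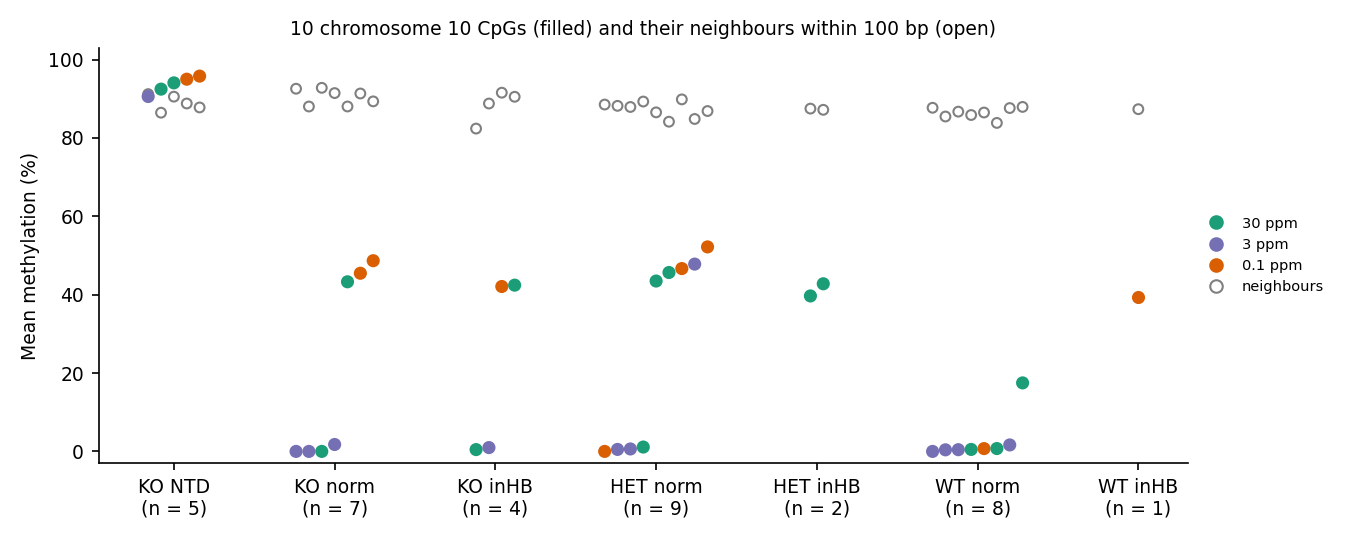
Mean methylation (%) over the 10 chromosome 10 CpGs in each library (filled, coloured by diet) and over the 17 neighbouring CpGs within 100 bp (open), by genotype and phenotype label. KO NTD embryos sit at 90.6 to 95.8%, KO norm embryos near 0 or at 43.3 to 48.7%, and the neighbours stay above 80% in every library.

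Embryos of other labels also fell on these steps. In the NTD litters, the 4 HET embryos (HET norm replicates 1 and 2, HET inHB replicates 1 and 2; inHB is a phenotype label of the series) read 45.7, 43.5, 42.8 and 39.7%. WT norm replicates 1 and 8, from the litters of KO NTD replicates 1 and 5, read 0.731 and 1.65%. The embryo labelled WT inHB, a littermate of KO NTD replicates 3 and 4, read 39.4%. KO inHB embryos, the third phenotype among knockouts, read 0.465, 42.08, 42.4 and 0.976% in replicate order. The first of these read 45% at the Tet1 CpG above and 39.4% at the deposited regions, both below every KO NTD and KO norm embryo, so these levels go against its label, and the study's sample list gives it as HET. It comes from an NTD litter, and counted as a HET it would lie apart from the 4 HET embryos above. In norm litters, HET norm replicates 4, 5, 7 and 8 read 0 to 1.11% and HET norm replicate 9 read 46.7%. The library labelled WT norm replicate 5 read 17.5%, between the steps. The levels of this library and of the one labelled WT inHB at the Tet1 CpG go against their labels. Sequence variants were not analysed here, and their part in these levels was not tested.

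By annotation, the 10 CpGs lie in introns of Cdc40, Foxo3, Sec63 and Scml4, in an exon of Sobp and, for 3 of them, between genes. Foxo3 encodes a forkhead factor of insulin signalling and stress response. Its tile (starting at chr10:42214001) differed by 9.74 points and was not called (adjusted p = 0.0809), although it was at a coverage minimum of 10 (12.8 points, adjusted p = 0.0281) and with no diet covariate (10.3 points, adjusted p = 0.0404). Nor was the tile nearest to Mir1929 (chr10:44382001-44383000, 13.5 points, adjusted p = 0.0809) or that in Sobp (2.93 points, adjusted p = 0.845). Each holds 1 such CpG among unaffected ones. The other 145 tested tiles of the span had a median difference of -0.956 points, against -0.68 points over all tiles. Of these 145, 0 were called, against 0.00605% of all tiles. At an unadjusted p under 0.05 and 10 points there were 3, against 0.597% of all tiles. The Sobp CpG lies in an MspI site (CCGG), and none of the others lies in an MspI or a TaqI site.

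**Figure D4:**
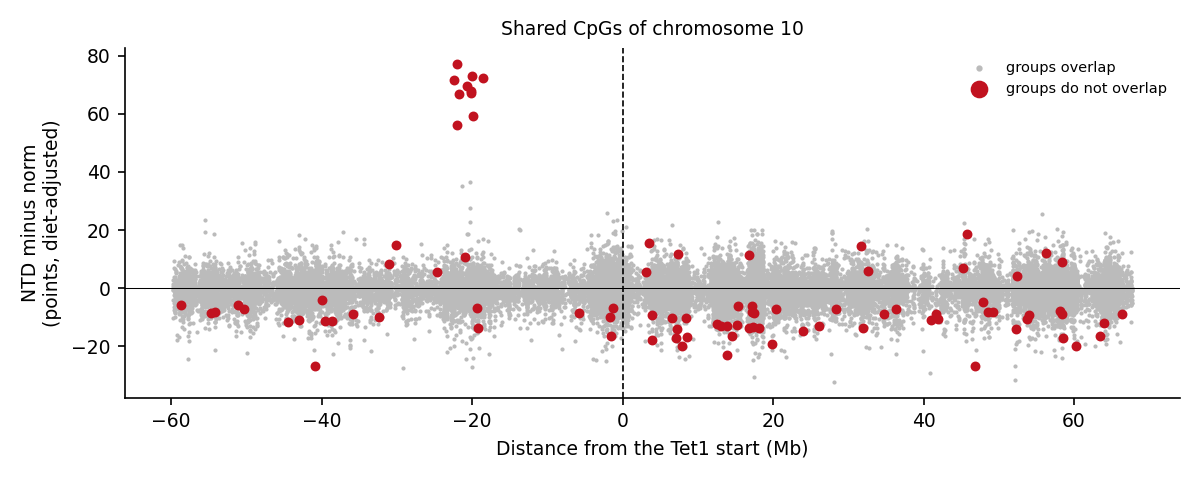
Difference between KO NTD and KO norm embryos (percentage points, adjusted for diet) at each shared CpG of chromosome 10 against its distance from the Tet1 start (Mb); red points are CpGs at which the groups do not overlap. The 10 CpGs above 50 points form 1 cluster, 18.5 to 22.3 Mb from the Tet1 start on the side of lower coordinates, which for this minus-strand gene is downstream, and the other points lie under 50 points.

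Without these CpGs (an alternative chosen after seeing the data), 66107 tiles could be tested and 0 were called, with 94 higher and 297 lower at an unadjusted p under 0.05 and 10 points. The tiles of Sec63, Cdc40 and Scml4 had too few CpGs left. The Gnas tile kept its difference, but its adjusted p rose from 0.0382 to 0.153, as fewer small p-values stood beside it.

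Gnas is an imprinted locus with several alternative first exons, methylated on the maternal or the paternal allele, from which the stimulatory G protein alpha subunit is made. The called tile (chr2:174328001-174329000) lies inside the gene, just after a transcript start (Gnas-202) at 174327768, and overlaps an exon of that transcript (174328108 to 174330434). KO NTD embryos read 60.3, 56.1, 60.5, 62.5 and 55.7%. KO norm embryos ranged from 33.8 to 52.6% with a median of 47.0%, so that the groups did not overlap, and the difference was 13.05 points (adjusted p = 0.0382). After adjustment for diet the difference was positive at all 34 CpGs of the tile, the smallest being 0.145 points. The tile was called on the pooled reads of these CpGs, so they are not separate observations. Its densest stretch, chr2:174328506-174328745 (GRCm38.p6, plus strand), is shown with the measured CpGs in capitals.
Gnas: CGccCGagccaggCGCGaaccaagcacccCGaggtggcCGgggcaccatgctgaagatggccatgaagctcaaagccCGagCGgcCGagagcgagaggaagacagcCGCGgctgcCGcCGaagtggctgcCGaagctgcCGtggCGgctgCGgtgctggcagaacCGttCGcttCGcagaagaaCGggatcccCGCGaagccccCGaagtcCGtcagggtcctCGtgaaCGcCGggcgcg

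The 34 CpGs form 2 stretches that behaved differently. The first 12, from 174328405 to 174328544, differed by 4.19 points, with 51.4 to 66.9% in NTD and 47.5 to 56.9% in norm embryos, which overlap. The following 22, from 174328583 to 174328738, differed by 23.3 points, with NTD values of 71.8, 57.7, 67.8, 58.2 and 51.4% and norm values of 17.4 to 51.9%, which overlap by a single norm embryo (replicate 1). Yet this second stretch had a median of only 7 to 20 reads per CpG in an embryo. Its CpGs lie close enough to share reads, although only 1 of the 12 embryos had equal reads at all 22. The tile test counts each CpG call of a read separately, and the tile held 337 to 899 calls per norm embryo and 544 to 712 per NTD embryo. With a coverage minimum of 10, only the first 12 CpGs were left and the tile was not called (4.19 points, adjusted p = 0.868). The call was also lost by limma (adjusted p = 0.826), with no SD filter (0.0949) and without KO NTD replicate 1, 3, 4 or 5 or KO norm replicate 2 (0.0581 to 0.169).

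**Figure D5:**
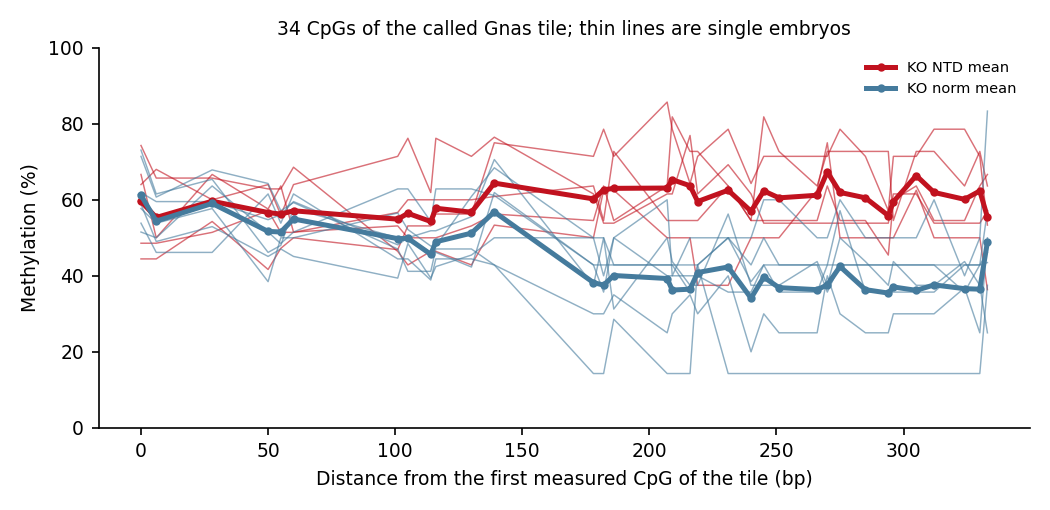
Methylation (%) of each measured CpG in the called Gnas tile against its distance from the first measured CpG (bp); thin lines are single embryos, and thick lines with points are the means of 5 KO NTD (red) and 7 KO norm (blue) embryos. The differences adjusted for diet are 0.145 to 7.14 points over the first 12 CpGs and 8.72 to 31.6 points over the following 22. The latter are covered by as few as 6 reads in an embryo. The drawn means are not adjusted for diet, so their distances differ from these values.

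Other parts of Gnas did not share the difference. Of the 11 tested tiles of the gene, the neighbour 1 kb before the called tile read 44.6% ± 15.5 (SD, n = 5) in NTD and 48.0% ± 4.99 (n = 7) in norm embryos (-3.18 points, adjusted p = 0.970), and the remaining tiles differed by -4.99 to 5.98 points, each with an adjusted p of at least 0.801. In the other groups, the level at the called tile was 33.3 to 47.2% in 8 WT norm, 35.04 to 49.7% in 9 HET norm, at most 53.7% in 2 HET inHB, 29.9% in 1 WT inHB and 40.6 to 51.9% in 4 KO inHB libraries. All were below the NTD values, the higher HET inHB library above every KO norm embryo, and the KO inHB library whose label is in doubt read 48.1%. In the littermates of NTD against norm litters the tile differed by -2.24 points (adjusted p = 0.911).

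Below the threshold, the tiles of at least 10 points with the smallest unadjusted p are described as not called. On the higher side these were, beside the tile nearest to Mir1929, tiles in Phactr3, a phosphatase and actin regulator gene (12.97 points, adjusted p = 0.234), Col23a1, a transmembrane collagen gene (14.2 points, adjusted p = 0.489), and Tctn2, a gene of the ciliary transition zone (11.48 points, adjusted p = 0.661). At Phactr3 the NTD embryos read 32.8, 15.4, 15.04, 24.2 and 34.32% and the norm embryos 8.18 to 19.5%, which overlap. At Tctn2 they read 87.1, 83.9, 89.2, 93.3 and 93.1% against 71.1 to 84.0%, overlapping by 1 embryo.

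On the lower side 8 tiles are listed. At Epha2, which encodes an ephrin receptor (chr4:141312001-141313000), NTD embryos read 69.7, 71.1, 68.2, 71.1 and 65.4% and norm embryos 74.4 to 83.3%, so the groups did not overlap (-10.9 points, adjusted p = 0.346). At Hpn, which encodes the serine protease hepsin, the values were 79.4, 85.2, 84.7, 88.8 and 80.0% against 91.6 to 96.6%, likewise without overlap (-10.3 points, adjusted p = 0.235). The tile at the start of the sterol transporter gene Abcg8, which is also that of Abcg5, read 13.9 to 20.4% in NTD and 18.2 to 34% in norm embryos (-12.5 points, adjusted p = 0.193). A tile across the non-coding RNA gene Neat1 and the small RNA gene Gm27533 read 68.4 to 79.7% against 79.8 to 90.2% (-12.1 points, adjusted p = 0.346). The 4 others lie nearest to non-coding transcripts or a pseudogene (Gm47431, 5330429C05Rik, 6720469O03Rik and Gm14427) and differed by -11.3 to -20.9 points with adjusted p-values of 0.319 to 0.346. Over all tiles, 33 (0.0499%) had groups that did not overlap and a difference of at least 10 points.

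Genes that act in neural tube closure held no called tile. Of 69 genes in the list for cranial neural tube closure, 51 had a tested tile, and of their 261 tiles 2 were higher and 2 lower at an unadjusted p under 0.05 and 10 points. This is 1.53% of the list's tiles against 0.597% of all tiles in either direction, and the median difference was -0.52 points against -0.68 points. Passing this rule depended on level: of 15089 tiles at a mean level of 20 to 80%, 80 were higher and 205 lower. Of 47118 tiles over 80%, 16 were higher and 86 lower. No list, here or below, was matched to all tiles for level. The tile just before the start of Gli3, a transcription factor of Hedgehog signalling, read 48.4% ± 5.10 (SD, n = 5) in NTD and 37.1% ± 16.9 (n = 7) in norm embryos (15.8 points, adjusted p = 0.718). Phactr4, a regulator of neural fold closure, held a tile that differed by 12.6 points (adjusted p = 0.756). In Grhl3, a surface ectoderm factor needed for closure, the values were 58.6% ± 10.1 and 71.6% ± 10.5 (-15.6 points, adjusted p = 0.728). In Shroom3, which drives apical constriction, they were 16.2% ± 4.43 and 27.4% ± 8.02 (-11.1 points, adjusted p = 0.728). The groups overlapped at each of these.

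Signalling genes held no called tile either. The share of tiles past the unadjusted rule was 3.90% for the Hedgehog list, 1.52% for WNT and 0.735% for planar cell polarity, against 0.597% of all tiles, and the median differences were 0.18, -0.89 and -0.27 points. The 23 planar cell polarity genes all had tested tiles, of which 1 of 136 was higher by the unadjusted rule, in the WNT co-receptor gene Ror2 (12.9 points, adjusted p = 0.766). Ankrd6, which encodes Diversin, held a tile at 10.7 points and another at -10.6 points (adjusted p = 0.855 and 0.835). The Hedgehog list had 2 higher and 1 lower of 77 tiles. These were the Gli3 tile, a tile in Gli2, its partner factor (13.4 points, adjusted p = 0.801), and a tile in Hhip, an inhibitor that binds Hedgehog ligands (-12.8 points, adjusted p = 0.801). The WNT list had 0 higher and 2 lower of 132 tiles, both in nuclear effectors of the pathway: Lef1, at 8.79% ± 3.99 (SD, n = 5) against 19.3% ± 9.51 (n = 7), a difference of -12.8 points (adjusted p = 0.678), and Tcf7l2, at -13.0 points (adjusted p = 0.740). In brain regional patterning genes 1 of 67 tiles was higher, in Gata2 (11.7 points, adjusted p = 0.731). Retinoic acid and BMP genes had 0 of 94 tiles past the unadjusted rule.

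Genes of folate and one-carbon metabolism, the pathway that the diets address, had 0 of 70 tiles past the unadjusted rule, which 0.597% of all tiles passed, and their median difference was -0.68 points. DNA methylation machinery genes (59 tiles) and germline genes silenced by methylation (48 tiles) also had 0. With so few tiles, 0 is close to the share over all tiles. Among imprinted genes, 1 of 62 tiles was called, the Gnas tile above, and at the unadjusted rule 1 was higher and 2 were lower, or 4.84% of the list against 0.597% of all tiles, of which 0.00605% were called. The first is in Airn, the non-coding RNA of the Igf2r locus, at 47.9% ± 8.01 (SD, n = 5) against 57.8% ± 6.75 (n = 7), a difference of -11.4 points (adjusted p = 0.678). The second is in Mest, at -11.2 points (adjusted p = 0.801).

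Markers of other cells that the dissected tissue could hold were compared by promoter methylation, which is not expression. The 6 neural promoters (Sox2, Pax6, Nes, Hes5, Tubb3 and Elavl3) averaged 0.491 to 0.864% in NTD and 0.591 to 1.20% in norm embryos. Promoters of 19 measured neural crest, ectoderm and mesenchyme genes averaged 15.3 to 15.8% and 14.6 to 16.1%, and those of 6 measured endothelium and blood genes 44.0 to 46.8% and 42.6 to 48.7%. At an unadjusted p under 0.05 there were 1 of 6 neural, 3 of 19 crest, ectoderm and mesenchyme and 2 of 6 endothelium and blood promoters, against 5.22% of all promoters without the SD filter. Their largest absolute differences were 0.541, 2.05 and 4.79 points, and a mean of at most 1.20% leaves the neural promoters no room to be 10 points lower. In gene bodies, the neural list had 1 of 67 tiles lower, in Elavl3, the crest list 1 of 62 lower, in Grhl3, and the endothelial list 0 of 73, by the unadjusted p and 10 points, against 0.449% of all tiles lower.

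Promoters as units were fewer. Only 2063 protein-coding promoters varied enough to be tested, and 0 were called (0%), by limma as well. At an unadjusted p under 0.05 and 10 points there were 4 higher and 6 lower (0.485%). The smallest p among these was at Abcg8, with 6 CpGs and the values given above (adjusted p = 0.321). Aire, which encodes the autoimmune regulator, read 27.5 to 39.0% in NTD and 12.9 to 27.1% in norm embryos, without overlap (10.9 points, adjusted p = 0.995). The other promoters with higher levels were Calhm2, Fhad1 and Car12, and 4 of the others with lower levels were Trim50, Arhgap18, Lair1 and Ppp2r2b, each with an adjusted p of 0.995.

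Tet1 itself had 9 tested tiles. None was called, and 8 of them differed by -2.07 to 3.84 points. The tile 3496 bases inside the gene, which has 3 CpGs, read 83.3, 87.9, 86.4, 77.5 and 90.9% in NTD embryos and 90.8 to 92.9% in norm embryos (-6.12 points, adjusted p = 0.797).

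Whether the phenotype difference depended on folic acid was tested as the difference between the NTD minus norm effects on 30 and 0.1 ppm. Of 66110 tiles, 1 (0.00151%) was called, at the start of Gfra3, a receptor gene of the GDNF family (chr18:34720001-34721000, 20 CpGs). On 0.1 ppm the NTD embryos read 9.70 and 6.40% and the norm embryos 27.99 and 24.3%, and on 30 ppm 14.7 and 15.02% against 8.47 and 12.2%. The effects were thus -18.1 and 4.54 points, and their difference was 22.6 points (adjusted p = 0.0147). The call was lost at a coverage minimum of 10 and without KO NTD replicate 1 or 2 or KO norm replicate 2 or 6. On each of these diets 2 embryos stood against 2, and the 2 NTD embryos on 0.1 ppm were littermates. Sex and phenotype are confounded on 0.1 ppm, and the part of sex in this value was not tested.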

How the data were processed

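oxBS-RRBS reads of single E11.5 brains were trimmed by the authors with Trim Galore 0.6.10, aligned to mm10 with Bismark 0.24.1, deduplicated with UMI-tools and called per CpG. For each CpG the deposited tables hold a methylated fraction and a read count; deposited positions start at 0 and were raised by 1. The deposited region lists (made with methylKit 1.26.0) hold positions and a score that is 0 throughout.

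Methylated read counts (fraction times count) were summed over 1 kb tiles or promoters (1 kb to either side of a protein-coding gene start, GENCODE vM21) and fitted with a quasi-binomial logistic model with diet as covariate, dispersion moderated by a Python version of the limma method (squeezeVar) with a floor of 1, F test, Benjamini-Hochberg adjustment (Python 3.11.15, numpy 2.4.6; limma 3.58.1 for the alternative). Values per embryo were compared by exact permutation within diet. Tile fits were tried on simulated counts, drawn independently for each embryo and tile. The simulation held no litters and no reads shared between CpGs, so it did not test those features. Members, lists and the comparison were chosen with earlier results of these data known. Named tiles: per direction the 8 called with the largest difference, filled by smallest unadjusted p among tiles of 10 points, 1 per gene; promoters likewise with 5; each of 13 lists up to 2 per direction. A tile takes the gene whose body plus 1 kb upstream it overlaps, otherwise the nearest start. Nothing in the labels separates technical from biological spread beyond the embryo. Depth was 25.7 to 47.7 M calls per embryo. Alternatives were a coverage minimum of 10, no SD filter, other covariates, limma on logit levels, other thresholds, merged littermates and each embryo left out. Positions are mm10, sequences GRCm38.p6 (RefSeq). The other deposited region lists and signal tracks were not used.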

Additional observations from a re-analysis of the deposited data

Results flagged for a closer look

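Of 80 groups of embryos examined, 5 held an embryo that stood apart from the rest of its group, and chance marks about 1 in 20 groups. All 5 were at named tiles, named promoters or Tet1 tiles. In the tile nearest to Mir1929, KO NTD replicate 2 read 83.75% against 89.9 to 91.7% in the other NTD embryos. In the tile nearest to Gm47431, KO norm replicate 2 read 86.5% against 66.3 to 71.5%. At the Aire promoter, KO NTD replicate 5 read 39.0% against 27.5 to 29.8%, and at the Ppp2r2b promoter KO norm replicate 6 read 97.1% against 85.7 to 90.3%. In the Tet1 tile at chr10:62865001-62866000, KO norm replicate 3 read 7.96% against 0 to 3.33%.

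The effect of phenotype differed between the 30 and 0.1 ppm diets at the Gfra3 tile, by 22.6 points (adjusted p = 0.0147 by the quasi-binomial test). The NTD embryos were higher on 30 ppm in 2 of 2 and lower on 0.1 ppm in 2 of 2.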

How the results depend on the processing

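No paired analysis was possible because no litter gave both phenotypes and the titles carry no replicate numbers. The number of tiles called was 4; it was 2 at a coverage minimum of 10, where 33827 tiles were tested, 0 without the 3-level CpGs (chosen after seeing the data), and 3 to 6 with each embryo left out. The other 10 alternatives stayed within 1.5 times the count. The Sec63, Cdc40 and Scml4 tiles were called under every alternative that still contained them (21, 21 and 22), apart from the removal of those CpGs. They lie within the same span of 3.82 Mb and split the norm embryos alike, so they are not separate observations. The Gnas tile was called under 12 of 22 (adjusted p = 0.00195 to 0.868) and was lost without KO NTD replicate 1, 3, 4 or 5 or KO norm replicate 2, by limma (adjusted p = 0.826), with no SD filter, at a minimum of 20 points and with KO inHB embryos added. The Phactr3 tile was called without KO NTD replicate 3 (adjusted p = 0.0397) or KO norm replicate 2 (0.00332), and the Gm47431 tile without KO norm replicate 5 (0.0105). Further tiles gained a call: higher in NTD at Foxo3 (coverage minimum of 10, no diet covariate), Nkpd1 (without the 3 ppm diet or KO norm replicate 7) and Nfatc4 (without the 3 ppm diet or KO NTD replicate 5), and lower at Mllt6 (-20.4 points, without KO NTD replicate 2), Trak1 (-10.5, without KO norm replicate 5) and Bmper (-30, without KO norm replicate 7). The Mir1929 tile turned from 13.5 to -1.13 points without its 3-level CpG. Promoter calls were 0 throughout (0 to 0 with an embryo left out). The count for phenotype by diet was 1, 0 at a coverage minimum of 10, and 0 to 8 with an embryo left out: 0 without KO NTD replicate 2, 8 without KO NTD replicate 4, and 5, 3 and 4 without KO norm replicates 5, 6 and 7. Gfra3 was among these calls in 4 of the 8 fits; without KO NTD replicate 1 or KO norm replicate 2 or 6 other tiles were called. The littermate count was 0, and 0 to 16 with an embryo left out: 16 lower without WT inHB replicate 1 (0 without it and WT norm replicate 5), and 1 without HET norm replicate 2 or 8 or WT norm replicate 4. Mean methylation differed by -0.436 to -0.276 points and the level at the deposited regions by -0.698 to -0.164 points with an embryo left out. With reads pooled or each library's own CpGs, the difference in mean methylation had exact permutation p-values of 0.542 and 0.806. The causes were not tested. Tiles held a median of 59 to 108 CpG calls per embryo, where a read counts once at each CpG it covers. This limits what can be seen at single tiles.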

Other observations

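Pairs of KO embryos were compared by the mean absolute difference over the tested tiles. It was 5.09 to 5.54 points within the NTD group, 4.43 to 6.11 points within the norm group and 4.56 to 6.00 points between the groups, and 5.09 and 5.27 points in the 2 pairs of littermates.

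Tiles by level had a median difference of -0.37 points under 20% methylation, -0.65 points at 20 to 80% and -0.72 points over 80%.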
